A study of Mus musculus with 6 samples.

Results

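The Wnt signalling genes described here were found by name: every probe, control spots apart, whose gene name in the scanner files was that of a Wnt ligand, an R-spondin (Rspo), a Frizzled receptor (Fzd), Lrp5 or Lrp6, an Lgr receptor (Lgr4 to Lgr6), a secreted antagonist of the Sfrp or Dkk family, Wif1, Axin1, Axin2, Ctnnb1 or Lef1. They named 51 of 37072 gene names on the array, through 79 of its 56605 probes. Of the 51, 19 were ligands, 4 R-spondins, 10 Frizzled receptors, 5 Lrp or Lgr receptors, 9 secreted antagonists and 4 intracellular proteins. RNA from the renal cortex of male C57BL/6 mice was measured on 6 arrays of 1 colour, 3 from diabetic C3aR-/- mice, which lack the receptor for the complement fragment C3a, and 3 from diabetic WT mice. Mice of both genotypes started a diet with 60% of calories from fat at 8 weeks of age, received streptozotocin, a toxin of insulin-producing cells, at 60 mg/kg on 3 days after 4 weeks of that diet, and were killed 26 weeks after streptozotocin. Mice without diabetes were not analysed here, so each comparison was between genotypes within diabetes. The labels give no more about the C3aR-/- allele, and they do not say that the replicates of a group were separate animals, so p-values measure only the spread between these samples, which may be technical.

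Wnt proteins are secreted ligands that bind a Frizzled receptor together with the coreceptor Lrp5 or Lrp6. In the canonical branch this stops a complex built on Axin from marking beta-catenin, the product of Ctnnb1, for destruction, and beta-catenin then acts in the nucleus with Lef1 and the Tcf factors. R-spondins, through the Lgr receptors, keep Frizzled at the cell surface, whereas Sfrp proteins and Wif1 bind the ligands and Dkk proteins bind the coreceptors. The pathway builds nephrons in the embryo, is mostly quiet in the adult kidney, and is known to become active again in injured tubules and in fibrosis.

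No Wnt gene passed the test between C3aR-/- and WT renal cortex once p-values were adjusted over all genes, which does not show that their levels were equal. The genes whose levels set the genotypes apart on every array were Lef1, Wnt10a and Fzd3, all lower in C3aR-/-, and Rspo1, which was higher in C3aR-/-. These were 4 of the 35 tested (11.4%), near the 9.85% of all genes whose genotypes did not overlap. Of the 51 genes, 35 were measurable, and 20 of these had a lower and 15 a higher mean level in C3aR-/- than in WT. Their median difference was -0.04 on the log2 scale, against 0.03 over all 22741 genes tested, where 43.4% were negative. A level here is the log2 of the processed signal of a probe minus the 75th percentile of its array, and a difference is the mean level of 3 C3aR-/- arrays minus that of 3 WT arrays, given ± its standard error (SE) from limma.

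The adjusted p from limma (Benjamini-Hochberg) was under 0.05 for 0 of the 35 Wnt genes and for 0% of all genes tested. Its lowest value was 0.931 among the Wnt genes and 0.858 among all genes. An unadjusted p under 0.05 was found for 3 of the 35 (8.57%), against a background of 4.89% of all genes. Of these 3, Lef1 and Wnt10a were lower in C3aR-/-, a direction taken by 2.68% of all genes at that threshold, and Rspo1 was higher, as were 2.21% of all genes. The levels of the 2 genotypes did not overlap for 4 of the 35 (11.4%), against 9.85% of all genes. Lef1, Wnt10a and Fzd3 lay wholly below WT, as did 4.19% of all genes, and Rspo1 wholly above, as did 5.66%. With 35 genes tested, both shares lie near the background. The plot of differences by role shows that most intervals cross 0.

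**Figure D1:**
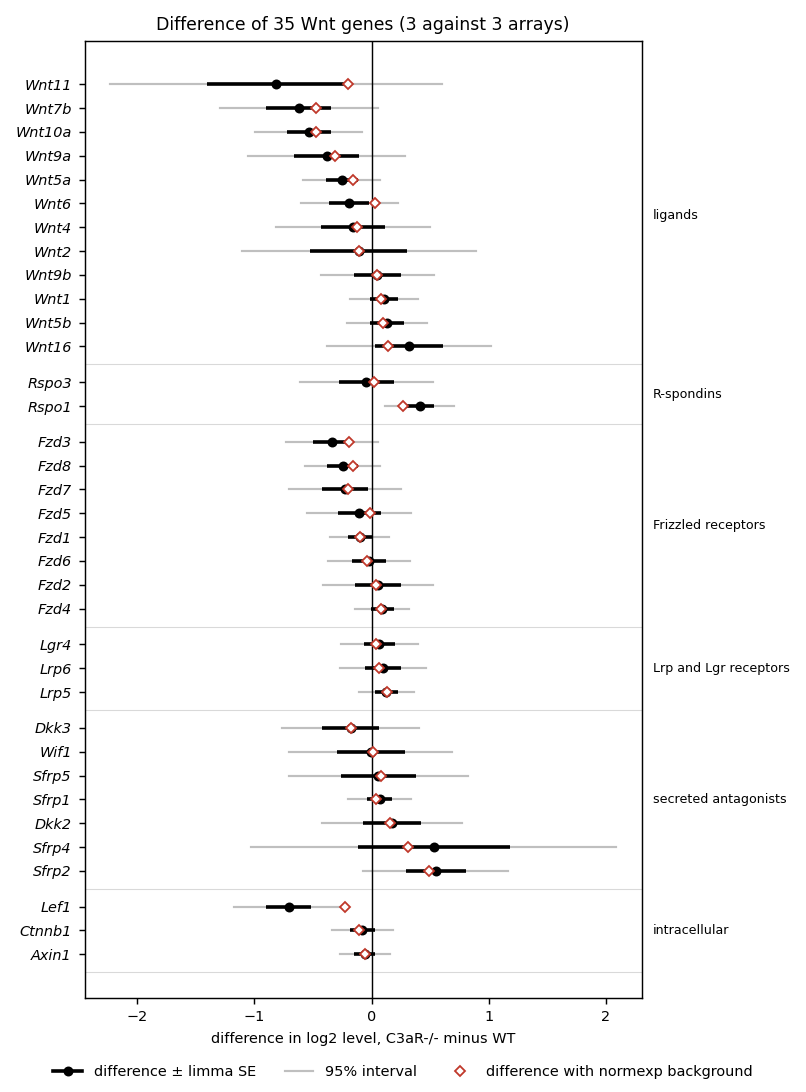
Difference in log2 level, C3aR-/- minus WT, for the 35 Wnt genes tested, grouped by role (black point and bar, limma difference ± SE; grey line, 95% interval; open diamond, the difference after normexp background correction; 3 arrays per genotype). The interval excludes 0 for Lef1, Wnt10a and Rspo1, and the normexp difference of Lef1 is -0.23 against -0.71. The normexp offset of 50 makes differences of dim probes smaller in size.

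Of the 79 probes, 47 were well above background on all 6 arrays, 7 on some and 25 on none. A gene was tested where a probe was well above background on at least 3 arrays, which held for 49 probes and, by role, for 12 ligands, 2 R-spondins, 8 Frizzled receptors, 3 Lrp or Lgr receptors, 7 antagonists and 3 intracellular proteins. The 16 genes left untested were Wnt2b, Wnt3, Wnt3a, Wnt7a, Wnt8a, Wnt8b, Wnt10b, Rspo2, Rspo4, Fzd9, Fzd10, Lgr5, Lgr6, Dkk1, Dkk4 and Axin2. For 13 of them no probe was well above background on any array. Axin2, a target that the pathway switches on and whose product restrains it, was among these 13, with both of its probes not well above background on all 6 arrays. The other 3, Wnt7a, Fzd9 and Lgr5, were seen on some arrays.

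A Wnt7a probe, for a ligand that signals in epithelia, had levels of -6.03, -5.93 and -5.60 in C3aR-/- and -4.56, -5.27 and -4.61 in WT. No C3aR-/- array and 2 WT arrays were well above background, and its mean in WT was 1.20-fold the bound in C3aR-/-. That bound takes for each C3aR-/- array the higher of its own signal and the lowest signal well above background there. The WT mean includes replicate 2, whose -5.27 lay below the lowest level well above background there, -4.79. The ratio of 1.20 is therefore not a strict lower limit. The second Wnt7a probe was well above background on no array. The Fzd9 probe had levels of -5.42, -6.51 and -5.92 in C3aR-/- and -4.37, -6.13 and -4.78 in WT, and 2 WT arrays alone were well above background. Lgr5, a receptor for R-spondins and a marker of epithelial stem cells, was well above background with 1 probe on 1 array of each genotype. None of the 3 passed the filter, so none was tested.

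**Figure D2:**
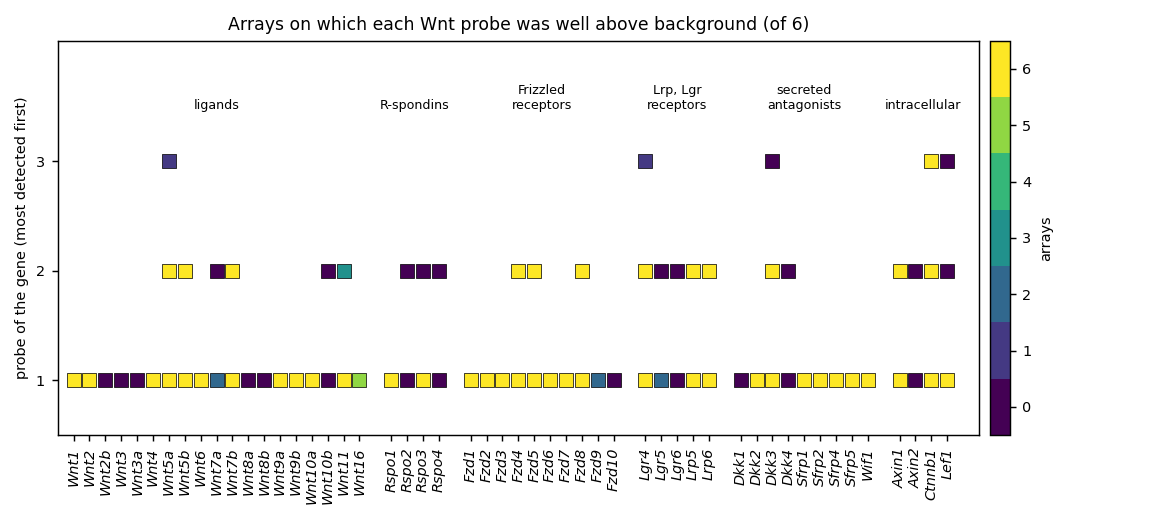
Number of arrays, of 6, on which each of the 79 Wnt probes was well above background (colour), by gene (horizontal axis, grouped by role) and by probe within the gene (vertical axis, most detected first). Of the probes, 47 reached 6 arrays and 25 reached 0, and 2 of the 3 Lef1 probes and both Axin2 probes are among the 25.

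Probes of 1 gene did not always give signal together. Lef1 has 3 probes on the + strand of mm9 chromosome 3, at chr3:130820246-130820305, chr3:130890941-130891000 and chr3:130926200-130926259, and the last alone was well above background, on all 6 arrays. In 5 tested genes (Dkk3, Lef1, Lgr4, Rspo3 and Wnt5a) at least 1 probe failed the filter while another passed. For Dkk3 and Wnt5a the failing probe spans an intron, since its 60 bases lie over 28988 bases of mm9 for Dkk3 (chr7:119265170-119294157, - strand) and over 3963 bases for Wnt5a (chr14:29331746-29335708, + strand). They are printed because they show exon junctions that gave signal on 0 arrays for Dkk3 and on 1 array for Wnt5a. The other probes of these genes were well above background on all 6. An Lgr4 probe whose bases lie over 1387 bases of mm9 was also well above background on all 6. An Rspo4 probe over 3145 bases was so on 0 arrays. Whether the junctions without signal are used was not tested.
Dkk3 junction probe: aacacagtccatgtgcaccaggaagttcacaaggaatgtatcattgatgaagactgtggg
Wnt5a junction probe: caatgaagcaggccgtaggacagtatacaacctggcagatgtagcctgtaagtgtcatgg
No annotation of mm9 was used here, so exons and untranslated regions are not named for the other probes.

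The windows around the starts of Lef1, Rspo1 and Axin2 are printed because Lef1 and Rspo1 had the smallest p-values among the Wnt genes and because Lef1 and Axin2 are known targets of the pathway. Each window has 300 bases around a start site on the + strand (RefSeq, build GRCm38.p6), and capitals mark the core letters bound by Lef1 and Tcf factors, CTTTGA or its reverse complement TCAAAG.
Lef1, first start site, chr3:131110047-131110346: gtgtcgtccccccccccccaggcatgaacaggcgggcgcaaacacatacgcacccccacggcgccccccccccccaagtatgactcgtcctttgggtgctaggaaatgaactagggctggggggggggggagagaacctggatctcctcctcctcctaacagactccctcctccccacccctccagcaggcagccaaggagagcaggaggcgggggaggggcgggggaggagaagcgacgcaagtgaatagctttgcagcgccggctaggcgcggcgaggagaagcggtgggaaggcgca
Lef1, last start site, chr3:131156044-131156343: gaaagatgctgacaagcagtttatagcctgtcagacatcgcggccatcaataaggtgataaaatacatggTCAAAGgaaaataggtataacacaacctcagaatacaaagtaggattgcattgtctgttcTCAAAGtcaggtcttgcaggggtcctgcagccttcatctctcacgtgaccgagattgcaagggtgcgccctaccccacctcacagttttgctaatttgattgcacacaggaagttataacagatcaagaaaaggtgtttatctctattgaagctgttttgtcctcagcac
Rspo1, chr4:124986180-124986479: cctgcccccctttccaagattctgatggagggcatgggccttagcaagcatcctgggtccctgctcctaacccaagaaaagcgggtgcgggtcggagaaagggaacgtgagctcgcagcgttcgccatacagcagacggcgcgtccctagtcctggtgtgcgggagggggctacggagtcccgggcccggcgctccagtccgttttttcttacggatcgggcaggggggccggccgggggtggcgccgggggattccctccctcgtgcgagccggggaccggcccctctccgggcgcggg
Axin2, chr11:108920099-108920398: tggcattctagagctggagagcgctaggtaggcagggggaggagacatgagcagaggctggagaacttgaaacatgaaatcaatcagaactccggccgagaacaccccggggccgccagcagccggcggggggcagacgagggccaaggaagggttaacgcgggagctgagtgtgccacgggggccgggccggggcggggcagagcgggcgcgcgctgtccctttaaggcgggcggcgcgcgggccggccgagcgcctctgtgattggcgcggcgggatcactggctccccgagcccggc
The last Lef1 window held the letters 2 times, from its bases 71 and 131 and both as TCAAAG, and the other windows of Lef1 and those of Rspo1 and Axin2 held none. RefSeq windows were found for 33 of the 51 genes, 40 windows in all, and the letters, searched on both strands, stood in 5 of the 40 (12.5%), those of Dkk1, Fzd1, Lef1, Wnt11 and Wnt5b. Of all 32851 windows of 27025 genes, 16.0% held them. A match is a description of the letters and says nothing of binding.

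Lef1, the nuclear partner of beta-catenin that also serves in T cell development, had levels of -4.05, -3.96 and -3.66 in C3aR-/- and -3.38, -3.36 and -2.81 in WT. Every C3aR-/- array lay below every WT array, and WT replicate 3 was the highest. Its mean was -3.89 ± 0.20 in C3aR-/- and -3.18 ± 0.32 in WT (SD, n = 3 each), a difference of -0.71 ± 0.19, or 0.612-fold, with an unadjusted p of 0.00948 and an adjusted p of 0.931 in limma. After normexp background correction, which added 50 to each signal, the difference was -0.23. Its unadjusted p of 0.129 (adjusted p = 0.901 in limma) was no longer under 0.05. That offset makes log2 differences of dim probes smaller in size, so this setting cannot part such shrinkage from a weaker difference. The difference was -0.92 among the 4 arrays in row 1 of the slide (C3aR-/- replicates 1 and 2, WT replicates 2 and 3) and -0.28 between the single pair in row 2 (C3aR-/- replicate 3 and WT replicate 1). With the row as a block the difference was unchanged and the unadjusted p was 0.0156 (adjusted p = 0.553 in limma, and 0.372 to 1.0 over the alternatives). No Lef1 probe other than this one was measurable, so no second probe checks it.

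Ctnnb1, which encodes beta-catenin, had levels of 3.64, 3.52 and 3.61 in C3aR-/- and 3.78, 3.71 and 3.52 in WT. The genotypes overlapped, and the difference of -0.08 ± 0.11 had a 95% interval from -0.34 to 0.18. Its other probes differed by 0.08 and -0.0041, so its 3 probes did not share a direction. Axin1, a scaffold of the beta-catenin destruction complex, lay between 2.29 and 2.38 in C3aR-/- and between 2.36 and 2.44 in WT, a difference of -0.06 ± 0.09. Its pooled SD within groups was 0.04, and 1.6% of all genes tested had a smaller one.

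Among the ligands, 8 of the 12 tested were lower and 4 higher in C3aR-/-, with a median difference of -0.17. Wnt10a, a canonical ligand of epithelia and hair follicles (probe at chr1:74850633-74850692, mm9, + strand), had levels of -0.39, -0.24 and -0.42 in C3aR-/- and 0.59, -0.09 and 0.05 in WT. The C3aR-/- arrays lay close together and below every WT array, of which replicate 1 stood highest. The difference was -0.53 ± 0.19, or 0.691-fold, with an unadjusted p of 0.0284 and an adjusted p of 0.931 in limma. Without WT replicate 1 it was -0.33, and it was -0.30 within slide row 1 and -1.01 between the pair in row 2, which holds that array. The unadjusted p in limma was no longer under 0.05 without C3aR-/- replicate 1 (0.0732), without C3aR-/- replicate 3 (0.0777) or within slide row 1 (0.0814).

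Wnt7b, the ligand by which the collecting duct directs growth of the renal medulla in the mouse embryo, had levels of -1.77, -1.98 and -1.06 in C3aR-/- and -0.74, -1.35 and -0.85 in WT. Replicates 1 and 2 of C3aR-/- lay below all WT arrays, and replicate 3 lay within the WT range. The difference was -0.62 ± 0.28, or 0.650-fold, with an unadjusted p of 0.0652 and an adjusted p of 0.931 in limma, and a second probe gave -0.67. Without WT replicate 1 and C3aR-/- replicate 2 the difference was -0.31, and it was -0.78 within slide row 1 and -0.31 in row 2. The unadjusted p was 0.0167 with the slide row as a block (adjusted p = 0.553 in limma) and 0.0448 with normexp (adjusted p = 0.901 in limma).

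The other ligands overlapped between genotypes. Wnt9a differed by -0.38 ± 0.28 and Wnt5a, a ligand of the branch that does not act through beta-catenin, by -0.25 ± 0.14. Wnt11, which acts in the same branch and in ureteric branching, had the largest difference in size, -0.82 ± 0.59, and this rested on 1 array. Its levels were -5.07, -4.72 and -5.01 in C3aR-/- and -4.98, -2.67 and -4.69 in WT, so that WT replicate 2 alone stood apart, and a second probe differed by 0.16. Wnt4, which starts nephron formation in the embryo, differed by -0.15 ± 0.27, Wnt6 by -0.19 ± 0.17 (0.03 with normexp) and Wnt2 by -0.11 ± 0.41. Wnt16 was higher in C3aR-/- by 0.32 ± 0.29, Wnt5b by 0.13 ± 0.14, Wnt1 by 0.11 ± 0.12 and Wnt9b, needed for tubule growth in the embryo, by 0.05 ± 0.20. Each of these 10 differences has a 95% interval that contains 0.

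**Figure D3:**
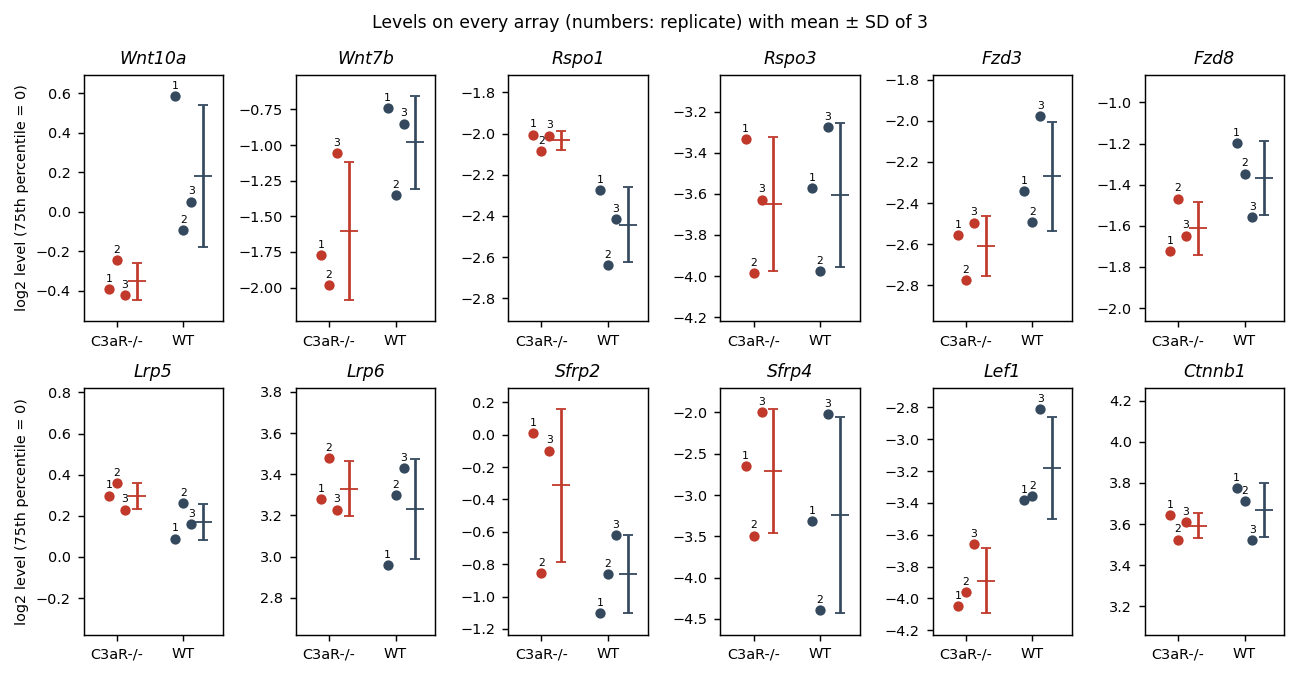
Levels (log2, 75th percentile of the array = 0) of the 12 Wnt genes described in full, on each of the 3 C3aR-/- arrays (red) and 3 WT arrays (blue), with replicate numbers above the points and the mean ± SD beside them; each panel has its own vertical axis. The genotypes do not overlap for Lef1, Wnt10a, Fzd3 and Rspo1.

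Rspo1, a secreted amplifier of Wnt signalling (probe at chr4:124686270-124686329, mm9, + strand), had levels of -2.0, -2.08 and -2.01 in C3aR-/- and -2.28, -2.64 and -2.42 in WT. The C3aR-/- arrays spanned under 0.1 and all lay above the highest WT array. The mean was -2.03 ± 0.04 in C3aR-/- and -2.44 ± 0.18 in WT (SD, n = 3 each), a difference of 0.41 ± 0.12, or 1.33-fold, with an unadjusted p of 0.0132 and an adjusted p of 0.931 in limma. Its direction held in all 20 alternatives, from 0.27 to 0.52, and it was 0.48 within slide row 1 and 0.27 in row 2. With normexp it was also 0.27. Rspo3, the other R-spondin measured, had levels of -3.34, -3.99 and -3.63 in C3aR-/- and -3.57, -3.97 and -3.28 in WT. These overlapped throughout, and the difference of -0.04 ± 0.23 turned positive under 5 alternatives.

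The Frizzled receptors spanned differences from -0.34 to 0.09, with 6 of 8 lower in C3aR-/- and a median of -0.10. Fzd3, known for its part in planar polarity and axon guidance (probe at chr14:65819923-65819982, mm9, - strand), had levels of -2.56, -2.77 and -2.49 in C3aR-/- and -2.34, -2.49 and -1.98 in WT. The groups did not overlap, but C3aR-/- replicate 3 and WT replicate 2 were separated by under 0.01. The difference was -0.34 ± 0.16, or 0.790-fold, with an unadjusted p of 0.0784 and an adjusted p of 0.931 in limma. It was -0.19 without WT replicate 3 and also with normexp, and -0.43 within slide row 1 against -0.16 in row 2.

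Fzd8, a receptor of the canonical branch, had levels of -1.72, -1.47 and -1.65 in C3aR-/- and -1.20, -1.35 and -1.56 in WT. The lowest WT array lay below the highest C3aR-/- array, so the groups overlapped. The difference was -0.24 ± 0.13 (unadjusted p = 0.111 and adjusted p = 0.931 in limma), a second probe gave -0.25, and the within-row values were -0.14 in row 1 and -0.45 in row 2. Fzd7 differed by -0.23 ± 0.20, Fzd5 by -0.10 ± 0.18, Fzd1 by -0.10 ± 0.10 and Fzd6 by -0.02 ± 0.14. Fzd2 and Fzd4, a receptor that also serves vessel growth, differed by 0.05 ± 0.19 and 0.09 ± 0.10. The second probe of Fzd5 had the opposite sign, at 0.19.

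The coreceptors Lrp5 and Lrp6 and the R-spondin receptor Lgr4 were each slightly higher in C3aR-/-, by 0.07 to 0.13. Lrp5 had levels of 0.30, 0.36 and 0.23 in C3aR-/- and 0.09, 0.26 and 0.16 in WT, a difference of 0.13 ± 0.10. Lrp6 had levels of 3.28, 3.48 and 3.23 in C3aR-/- and 2.96, 3.30 and 3.43 in WT, a difference of 0.10 ± 0.15. The groups overlapped for both. WT replicate 1 was the lowest array for Lrp5 and Lrp6, and without it the difference of Lrp6 was -0.04. Lgr4 differed by 0.07 ± 0.14.

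Of the 7 secreted antagonists tested, 5 were higher and 2 lower in C3aR-/-, with a median of 0.07. Sfrp2, a ligand-binding protein made by stromal cells, had levels of 0.01, -0.85 and -0.10 in C3aR-/- and -1.10, -0.86 and -0.62 in WT. Replicates 1 and 3 of C3aR-/- lay above all WT arrays, while replicate 2 lay within the WT range. The difference was 0.55 ± 0.26, or 1.46-fold, with an unadjusted p of 0.0733 and an adjusted p of 0.931 in limma. It was 0.32 within slide row 1 and 1.0 in row 2. Of 6 smooth muscle markers, 5 were also higher in C3aR-/- with a median of 0.25, and their mean level was 0.86, 0.49 and 0.97 in C3aR-/- and 0.37, 0.40 and 0.72 in WT. Among them Myh11 differed by 0.61 ± 0.27, Cnn1 by 0.60 ± 0.27 and Acta2 by 0.38 ± 0.18. Actg2 differed by 0.11 ± 0.14, Tagln by 0.08 ± 0.19 and Des by -0.14 ± 0.29. Of the 8 fibroblast and pericyte markers tested, 6 were lower and 2 higher in C3aR-/-, with a median of -0.22. Of 7 endothelial markers, 1 was lower and 6 were higher, with a median of 0.15. The part of any of these cells in the Sfrp2 difference was not tested.

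Sfrp4, a relative of Sfrp2, had levels of -2.65, -3.49 and -1.99 in C3aR-/- and -3.32, -4.39 and -2.03 in WT. The groups overlapped, and replicate 2 was the lowest array of each genotype. The difference of 0.53 ± 0.65 had a 95% interval from -1.03 to 2.09, and without WT replicate 2 it was -0.04. Dkk2 differed by 0.18 ± 0.25, Sfrp1 by 0.07 ± 0.11, Sfrp5 by 0.06 ± 0.32, Wif1 by -0.0046 ± 0.29 and Dkk3, a Dkk relative that marks stressed tubules, by -0.18 ± 0.24.

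The median SD within groups was 0.26 over the 35 Wnt genes, against 0.19 over all genes tested, and 22 of the 35 lay above that value and 13 did not. Sfrp4, Wnt11 and Wnt2 varied most, with SDs of 0.99, 0.90 and 0.63, and Axin1, Fzd4 and Lrp5 least, with 0.04, 0.07 and 0.08. The precision follows from this and from 3 arrays per genotype: the 95% interval lay within ±1 for 27 of the 35 genes and within ±0.5 for 11. Both slide rows gave the same sign for 25 of the 35.

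Some Wnt genes were high or low together on single arrays, as the heat map of centred levels shows, and so were part of all genes. Replicate 2 was the lowest array in both genotypes for 12 of the 35 (34.3%), against 17.7% of all genes, and these 12 were Dkk3, Fzd1, Fzd2, Fzd3, Fzd7, Rspo1, Rspo3, Sfrp4, Wif1, Wnt4, Wnt5a and Wnt7b. Among the marker lists the pattern held for 9 of 11 T cell, 9 of 10 macrophage, 7 of 8 fibroblast and pericyte, 5 of 6 podocyte, 3 of 4 inner medulla and urothelium, 4 of 10 injured tubule and 2 of 5 B cell markers. It held for 2 of 6 smooth muscle, 1 of 7 endothelium, 1 of 8 collecting duct, 1 of 4 adipocyte and 1 of 6 proliferation markers. It held for 0 of 8 proximal tubule, 0 of 6 thick limb and distal tubule and 0 of 3 adrenal markers. WT replicate 1 was the highest of all 6 arrays for 12 of the 35 (34.3%), among them 7 of the 12 ligands, against 6377 of all 22741 genes (28.0%). The same array was the lowest for 5 of the 35 (14.3%), against 6742 of all genes (29.6%). C3aR-/- replicate 2 was the lowest for 13 of the 35 (37.1%), against 4722 of all genes (20.8%). The replicate 2 arrays also had the fewest probes well above background, 58.6% in C3aR-/- and 58.8% in WT, against 62.1% to 63.0% on the other 4 arrays. WT replicate 1 and C3aR-/- replicate 2 were the arrays farthest apart on the leading principal component of all genes (43.1% of the variance). Without these 2 arrays, 14 of the 35 Wnt genes had a negative difference and their median was 0.04, against 0.02 over all genes.

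**Figure D4:**
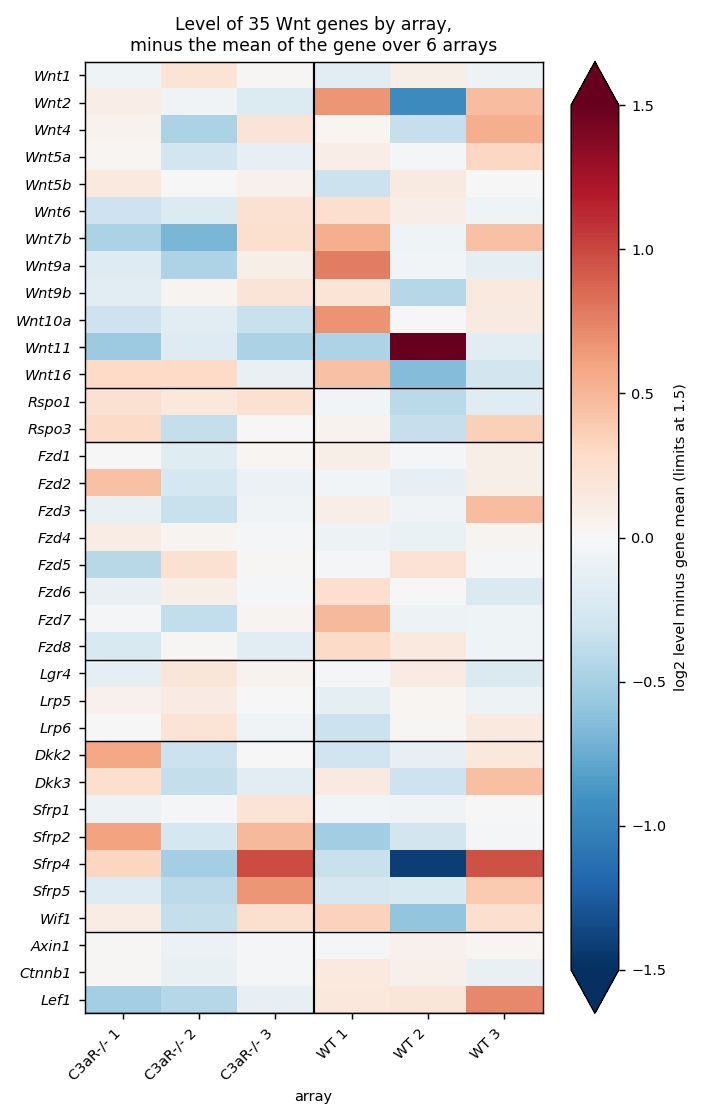
Level of the 35 Wnt genes on each array minus the mean of the gene over 6 arrays (log2; colour limits at ±1.5), with C3aR-/- arrays left and WT arrays right of the vertical line and roles parted by horizontal lines. Wnt11 on WT replicate 2 stands alone, and Rspo1, Lef1, Fzd3 and Wnt10a are the rows whose signs or shades part by genotype.

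Lists of markers of other cells were set beside some of these genes. Of 12 T cell markers, 11 were tested and 10 were lower in C3aR-/-, with a median of -1.22. Their mean level was -1.70, -2.37 and -1.62 in C3aR-/- and -0.85, -1.20 and -0.62 in WT, so the genotypes did not overlap, as for Lef1. Within each genotype replicate 2 was lowest for that mean, whereas replicate 1 was lowest for Lef1. None of the 11 T cell markers reached an adjusted p under 0.05 in limma. An unadjusted p under 0.05 was found for 9 (81.8%), against 4.89% of all genes, and Trat1 was not tested. Cd4 was not lower, at 0.06 ± 0.13, and Cd8a, at -0.46 ± 0.27, was lower without an unadjusted p under 0.05. In whole cortex, fewer cells of a type and less RNA per cell cannot be told apart, and the part of T cells in the Lef1 difference was not tested. Of 6 B cell markers, 5 were tested and 4 were lower in C3aR-/- with a median of -0.23. Their mean level was -3.21, -3.29 and -3.31 in C3aR-/- and -2.96, -3.03 and -2.84 in WT, again without overlap. That rests on Ms4a1 on C3aR-/- replicate 3, at -5.56, below the lowest level well above background on that array, -5.12. Cd22 was the tested marker that was not lower, at 0.09 ± 0.19. An unadjusted p under 0.05 in limma was found for 1 of the 5 (20.0%). Of 10 macrophage markers, 9 were lower with a median of -0.56, and their mean level was 1.88, 1.43 and 1.83 in C3aR-/- and 2.46, 1.84 and 2.29 in WT, which overlapped. An unadjusted p under 0.05 in limma was found for 4 of these 10 (40.0%), all lower. The genotypes did not overlap for 5 of the 10 (50.0%), 4 lower and 1 higher, against 9.85% of all genes. The part of B cells and macrophages in the Lef1 difference was not tested either. Of 10 markers of injured tubule, 9 were lower in C3aR-/- with a median of -0.63, and WT replicate 1 was the highest array for all 10. An unadjusted p under 0.05 in limma was found for 3 of the 10 (30.0%), against 4.89% of all genes. Their mean level was 2.70, 2.42 and 3.0 in C3aR-/- and 3.82, 2.88 and 3.04 in WT. Within C3aR-/-, replicate 2 was the lowest array for that mean and the highest for Wnt10a. The part of injured tubule in the Wnt10a difference was not tested.

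Of 9 fibroblast and pericyte markers, 8 were tested, 6 were lower in C3aR-/-, and their mean level was 1.88, 1.08 and 1.60 in C3aR-/- and 1.80, 1.42 and 1.96 in WT. The genotypes overlapped. Replicate 2 was the lowest in each, as for Sfrp4, Wif1, Dkk3 and Wnt4, genes singled out after their values were seen, but also as for the T cell, macrophage and podocyte means, so the shared low array does not set the fibroblast list apart from those. The part of any of these cells in the levels of those 4 genes was not tested. All 8 markers of the proximal tubule, the main tubule of the cortex, passed the filter, with a mean level of 5.69, 6.04 and 5.54 in C3aR-/- and 4.60, 5.78 and 5.58 in WT. All 8 had a higher mean in C3aR-/- with a median difference of 0.45, as had 6 of 6 thick limb and distal tubule markers (0.27) and 8 of 8 collecting duct markers (0.12). WT replicate 1 was the lowest array for all 8 proximal tubule markers, and the part of these cells in any Wnt difference was not tested. C3ar1, the gene removed in C3aR-/-, had levels of -4.10, -4.95 and -4.69 in C3aR-/- and -2.96, -3.86 and -3.62 in WT. All C3aR-/- arrays lay below all WT arrays, and 2 of the 3 were still well above background. The difference was -1.10 ± 0.30 (unadjusted p = 0.0099 and adjusted p = 0.931 in limma), and -0.39 with normexp. It is not known here whether the C3ar1 probe lies in the deleted stretch, and the macrophage markers above are of cells that carry the receptor.

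**Figure D5:**
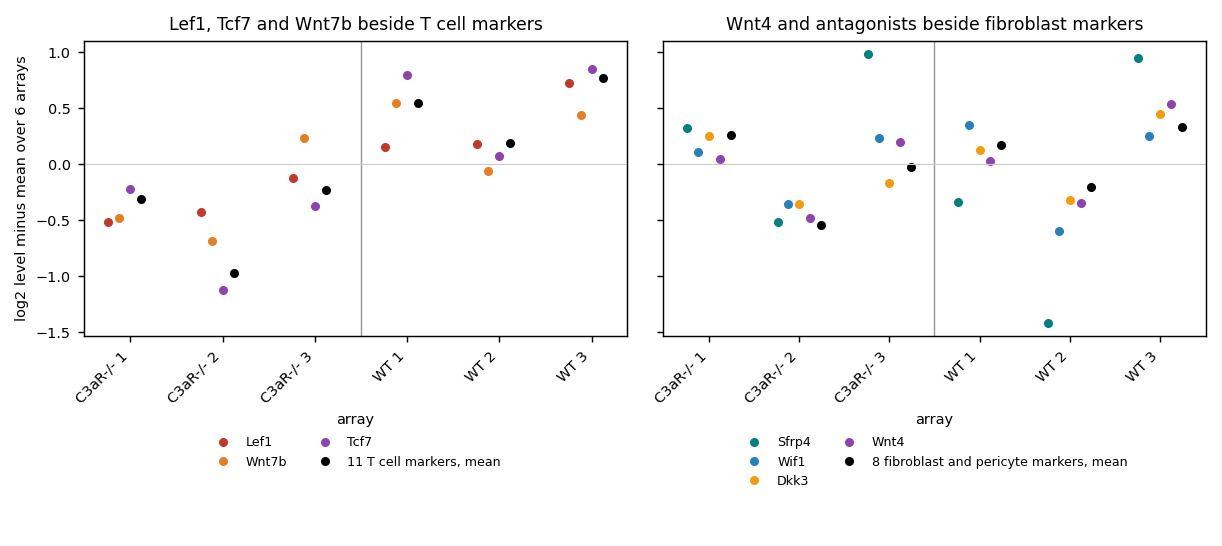
Levels minus the mean over 6 arrays (log2) by array, with C3aR-/- left and WT right of the line in each panel: Lef1, Wnt7b and Tcf7 beside the mean of 11 T cell markers (left), and Sfrp4, Wif1, Dkk3 and Wnt4 beside the mean of 8 fibroblast and pericyte markers (right). Lef1, Tcf7 and the T cell mean part by genotype, whereas in the right panel replicate 2 is low in both genotypes, as it also is for the means of the T cell, macrophage and podocyte markers.

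Beyond the 51 genes, 69 further pathway genes were listed by role and 66 were tested, all but Ndp, Sost and Pygo1. Of these 27 were lower and 39 higher in C3aR-/-, with a median difference of 0.03, and 3 (4.55%) had an unadjusted p under 0.05, close to the 4.89% of all genes. Their lowest adjusted p in limma was 0.920. The genotypes did not overlap for 5 of the 66 (7.58%), against 9.85% of all genes. Tcf7, a nuclear factor of the Lef1 family that T cells use, had levels of -3.59, -4.49 and -3.73 in C3aR-/- and -2.56, -3.28 and -2.51 in WT. All C3aR-/- arrays lay below all WT arrays, and the difference was -1.15 ± 0.31, or -0.53 with normexp. The family members Tcf7l1 and Tcf7l2 differed by 0.07 ± 0.12 and 0.09 ± 0.10. The mean of the T cell markers was also lower on every C3aR-/- array, and their part in the Tcf7 difference was not tested.

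Mmp7, a secreted protease and a target of beta-catenin in injured tubules, had levels of -4.99, -4.21 and -4.30 in C3aR-/- and -2.51, -3.31 and -3.46 in WT. The groups did not overlap, WT replicate 1 was the highest array, and the difference was -1.41 ± 0.32, or -0.54 with normexp. Bcl9l, which tethers beta-catenin to its coactivators, had levels of 1.85, 1.72 and 1.80 in C3aR-/- and 1.54, 1.59 and 1.50 in WT. It was higher on every C3aR-/- array, by 0.25 ± 0.09. Its relative Bcl9 went the other way, by -0.16 ± 0.10, and also did not overlap. The targets as a whole did not share a direction: 7 of 15 were lower and 8 higher in C3aR-/-, with a median of 0.01. Cd44 differed by -0.78 ± 0.39, Myc by -0.38 ± 0.28, Ccnd1 by 0.02 ± 0.14 and Sp5 by 0.23 ± 0.21.

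The 3 secretion genes had positive differences, among them Porcn, which adds the lipid that Wnt proteins need, at 0.17 ± 0.11, and Notum, which removes it, at 0.26 ± 0.21. Of the 11 coreceptors and regulators of receptor turnover tested, 4 were lower and 7 higher. Rnf43 and Znrf3, paired ubiquitin ligases that clear Frizzled, differed in opposite directions, by -0.20 ± 0.14 and 0.22 ± 0.15. Antagonists outside the naming rule included Apcdd1 at 0.37 ± 0.19 and Frzb at -0.19 ± 0.20. Planar polarity genes had a median of -0.02, with Prickle1 at 0.23 ± 0.19 and Prickle2 at 0.27 ± 0.21. In the destruction complex and its transducers, 4 of 12 were lower and 8 higher. Dvl1, which relays the signal from Frizzled, was higher on every C3aR-/- array, by 0.22 ± 0.12, and Gsk3a, a kinase that marks beta-catenin, differed by 0.11 ± 0.10. None of these had an adjusted p under 0.05 in limma.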

How the data were processed

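Total RNA of 6 renal cortex samples was labelled with Cy3 (0.2 µg per sample) and hybridised to 1-colour Agilent arrays, per the labels' protocols. Per the file headers, the 6 arrays shared 1 slide and 1 scan, and their 62976 spots each were quantified on an mm9 grid with Agilent Feature Extraction 10.7.1.1. The deposited intensity used was the processed signal, background-subtracted but not normalized between arrays per the file headers. The authors' deposited table holds log2 values made with unstated steps and served as an alternative.

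Outlier spots were left out, spots of 1 probe averaged, and log2 values scaled to the 75th percentile of each array. No probe was saturated. The 34778 probes well above background on at least 3 arrays were kept, and the probe with the highest mean stood for its gene (22741 genes). Genotypes were compared with limma 3.58.1 in R 4.3.3, with Benjamini-Hochberg adjustment over all genes and a threshold of 0.05; the fit was tested on simulated data. The number of arrays limits the precision. Arrays correlated at 0.981 to 0.995. Values on every array are given for Wnt genes with an unadjusted p under 0.05 or no overlap and for the 2 smallest p-values in each role; other pathway genes were named by the same p-value rule, and Bcl9, Tcf7l1, Tcf7l2, Myc, Ccnd1 and Sp5 after their values were seen. The Wnt genes, the other lists and the tests were chosen with earlier results of these data known. Alternatives covered normalization, background correction (normexp, offset 50), the filter, probe choice, variance model, array weights, replicate and slide-row blocks and left-out arrays. Slide rows, examined singly, were added after seeing the data.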

Additional observations from a re-analysis of the deposited data

How the results depend on the processing

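The adjusted p stayed at or above 0.05 for every gene under all 20 alternatives, while the number of genes with an unadjusted p under 0.05 ranged from 767 to 2115. For the Wnt genes that number, 3 of 35, was 5 of 51 without the filter, 7 with array weights, 5 with the slide row as a block, and 2 to 6 when single arrays were left out (6 without WT replicate 2). For the other pathway genes, 3 of 66, it was 6 of 127 for single probes, 6 with array weights, 6 without WT replicate 1 and C3aR-/- replicate 2, and 2 to 4 when single arrays were left out. The count over all genes moved too, from 1111 of 22741 to 1222 of 37323 without the filter and 1628 of 34778 for single probes. It was 2115 with array weights, 1741 with the slide row as a block, and 2026 without WT replicate 1 and C3aR-/- replicate 2. With single arrays left out it was 767 to 1523 (1523 without WT replicate 2). The cause of these moves was not tested, apart from the larger number of genes or probes where the filter or the probe rule was dropped.

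Whether the replicate numbers pair the samples is not known here. Deviations from the group means correlated at 0.13, 0.41 and -0.09 for replicates 1, 2 and 3, which does not settle it. With the replicate block, 6 Wnt genes had an unadjusted p under 0.05, against 3 without it, and 1596 of all genes, against 1111. Wnt7b then had an unadjusted p of 0.0228 (adjusted p = 0.611 in limma).

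The median of the Wnt genes ran from -0.08 without C3aR-/- replicate 1 to 0.08 without WT replicate 3, and was also positive with normexp (0.01) and without both WT replicate 1 and C3aR-/- replicate 2 (0.04). Lef1, Wnt10a, Rspo1, Wnt7b, Fzd3, Fzd8, Lrp5 and Sfrp2 kept their sign in all alternatives. Lrp6 reversed with array weights (-0.018), without WT replicate 1 (-0.036) and without both arrays (-0.11), and ran from -0.036 to 0.20 with single arrays left out. Rspo3 reversed with normexp (0.024), array weights (0.23), without C3aR-/- replicate 2 (0.12), without WT replicate 3 (0.12) and without both arrays (0.14), and ran from -0.23 to 0.12 with single arrays left out. Ctnnb1 reversed without both arrays (0.0089) and ran from -0.15 to -0.025 with single arrays left out, and Sfrp4 reversed without WT replicate 2 (-0.042) in a range up to 1.14. Signal near background limits the dim probes, Lef1, Wnt11, Wnt16, Wnt6, Tcf7, Mmp7 and C3ar1 among them. The normexp offset of 50 also makes the differences of such probes smaller in size.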
